A study of Mus musculus with 91 samples.

Results

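The Iroquois homeobox genes of the mouse, Irx1 to Irx6, were followed in sorted cells of the fetal gonad. The members were the transcript clusters of the array (the set of probes that reports 1 gene) annotated to a single gene with one of these 6 symbols. Each symbol had 1 such cluster, so the family made up 6 of the 19938 genes that the array names in this way, and all 6 passed the filter on low values, a log2 value above 6 on at least 2 arrays of a group. Iroquois proteins are homeodomain transcription factors of the TALE class, in which the homeodomain carries extra residues in a loop between its helices, and they act in patterning of the heart, limb, neural tube and other organs. In mammals the genes lie in paired clusters that arose by duplication, and in the mouse ovary Irx3 and Irx5 are known from granulosa cells and their precursors, where they bear on the contact between granulosa cells and the oocyte.

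Sorted cells were hybridised to Affymetrix Mouse Gene 1.0 ST arrays, and the values are log2 intensities after robust multi-array averaging (RMA). Gonads of both sexes were taken at 3 stages (E11.5, E12.5, E13.5), and 3 arrays were made for each population, sex and stage, which gives 72 arrays of 4 lineages and 18 arrays of αSma-EYFP cells. Each array holds cells pooled from 1 or more litters with the sexes kept apart, so p-values measure the spread between such pools. Supporting cells were Sry-EGFP cells in XX gonads at every stage and in XY gonads at E11.5, and Sox9-ECFP cells in XY gonads at the later stages. Reporter and sex of the supporting cells therefore cannot be told apart at the later stages, nor can reporter and stage in the first XY step. The Sry-EGFP transgene lacks the Sry reading frame and marks supporting cells of both sexes. Interstitial/stromal cells were a further lineage of the 4. Endothelial cells were Flk1-mCherry cells, whose reporter follows Kdr, and the E11.5 sorts kept a portion of the mesonephros. By the study's account the XY Flk1-mCherry sort also held Leydig cells after E11.5, through leaky expression of the reporter. Germ cells were Oct4-EGFP cells, whose reporter follows Pou5f1, sorted from gonad with the mesonephros attached, which the labels give for E11.5 and the methods without a stage. The αSma-EYFP cells carry a reporter of Acta2. The labels call them mesenchymal, stromal or interstitial cells, but by the study's account the sort also held supporting cells, at least at the early stage, so it is a mixed population. The Sry-EGFP, Sox9-ECFP and Oct4-EGFP embryos were of mixed CD-1 and C57BL/6J background, Flk1-mCherry embryos were CD-1, interstitial/stromal embryos had a CD-1 parent and a parent of mixed background, and αSma-EYFP embryos were FVB by the labels and of a mixed FVB and CD-1 line by the methods.

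By the RefSeq table for GRCm38.p6, Irx1 lies at chr13:71958232-71963723, Irx2 at chr13:72624430-72634196 and Irx4 at chr13:73259589-73269622. Irx3 lies at chr8:91798511-91801654, Irx5 at chr8:92357796-92361456 and Irx6 at chr8:92674289-92680956. Irx3 was the member with the widest range of levels, so the 250 bases before its start are shown, which RefSeq places at chr8:91801655-91801904 on the minus strand. Capitals mark CG pairs.
Irx3: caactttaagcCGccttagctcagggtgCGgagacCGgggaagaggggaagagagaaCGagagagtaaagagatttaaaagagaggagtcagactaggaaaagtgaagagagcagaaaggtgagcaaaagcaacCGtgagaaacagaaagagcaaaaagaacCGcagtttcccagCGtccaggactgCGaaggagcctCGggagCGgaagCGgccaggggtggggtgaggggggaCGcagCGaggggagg
The Irx3 window held 13 CG pairs at 56.0% G and C, against a median of 6 CG pairs and 52.4% over 32851 mouse promoter windows of the same length. RefSeq windows were matched for 3 members. The Irx2 window, chr13:72628570-72628819, held 19 CG pairs and the Irx4 window, chr13:73260247-73260496, held 22. Both windows lie inside the gene spans given above, so they precede a start within the span and not its outer end. The Irx3, Irx2 and Irx4 windows were searched on both strands for short motifs, and none of the windows held any of them. The letters TCAAAG, the core bound by TCF/LEF factors, are present in 13.8% of all promoter windows. The letters CAAGGTCA, bound by the steroidogenic factor NR5A1, are present in 1.3%. The letters AGATAA, bound by zinc finger factors such as Gata4, are present in 10.0%. The letters GTAAACA, bound by forkhead factors, are present in 3.2%, and the letters ACANNTGT, bound by Iroquois proteins themselves, in 6.3%.

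Array medians ran from 6.56 to 6.81 and no array duplicated another (highest correlation 0.9968). The mean over the endothelial markers was 10.45 to 10.87 in Flk1-mCherry groups and at most 7.28 elsewhere, and the mean over the germ markers was 9.74 to 10.16 in Oct4-EGFP groups and at most 7.16 elsewhere. The mean over 7 interstitial and mesenchymal markers was 9.14 to 10.33 in interstitial/stromal and αSma-EYFP groups and at most 8.59 elsewhere. In supporting cells the pre-granulosa markers averaged 9.02 to 9.35 in XX groups and 7.31 to 8.11 in XY groups, and the Sertoli markers 7.28 to 7.54 in XX groups and 9.66 to 10.10 in XY groups. Signal without expression does not sit at 0 on this scale. Of 8 Y-linked genes, Sry averaged 7.85 in the 45 XX arrays and the others averaged 4.52 to 5.84. A low level of an Iroquois gene therefore cannot be read as expression, and levels are not compared between genes, since probes differ.

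Irx3 was the Iroquois gene that differed most between the sexes, and the supporting cells were where its level was highest. At E11.5 the 3 XX Sry-EGFP arrays read 8.34, 8.04 and 7.94 for Irx3, against 6.69, 7.02 and 6.94 in XY Sry-EGFP arrays. At E12.5 Irx3 read 9.19, 8.65 and 9.23 in XX Sry-EGFP arrays, against 6.70, 6.79 and 6.32 in XY Sox9-ECFP arrays. At E13.5 it read 9.13, 9.19 and 9.05 in XX Sry-EGFP arrays, against 6.39, 6.62 and 6.45 in XY Sox9-ECFP arrays. XX and XY arrays did not overlap at any stage, and the gap was already present at E11.5, where both sexes were sorted by the same reporter. Irx3 was higher in XX cells by 1.22 ± 0.18 (SE, log2, 2.33-fold, limma, adjusted p = 1e-06) at E11.5. The difference was 2.42 ± 0.18 (5.35-fold, limma, adjusted p = 1.5e-16) at E12.5 and 2.64 ± 0.18 (6.23-fold, limma, adjusted p = 5.4e-18) at E13.5. Over all 16820 tested clusters, 3.92%, 13.8% and 14.7% were called higher in XX supporting cells at the 3 stages, and of the 6 Iroquois genes 1 was called at E11.5 (Irx3) and 2 at each later stage (Irx3 and Irx5). The median difference over the 6 genes was 0.03, -0.05 and 0.09, so the family as a whole did not move with Irx3. In pooled cells, fewer cells of a type and less RNA per cell cannot be told apart.

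**Figure D1:**
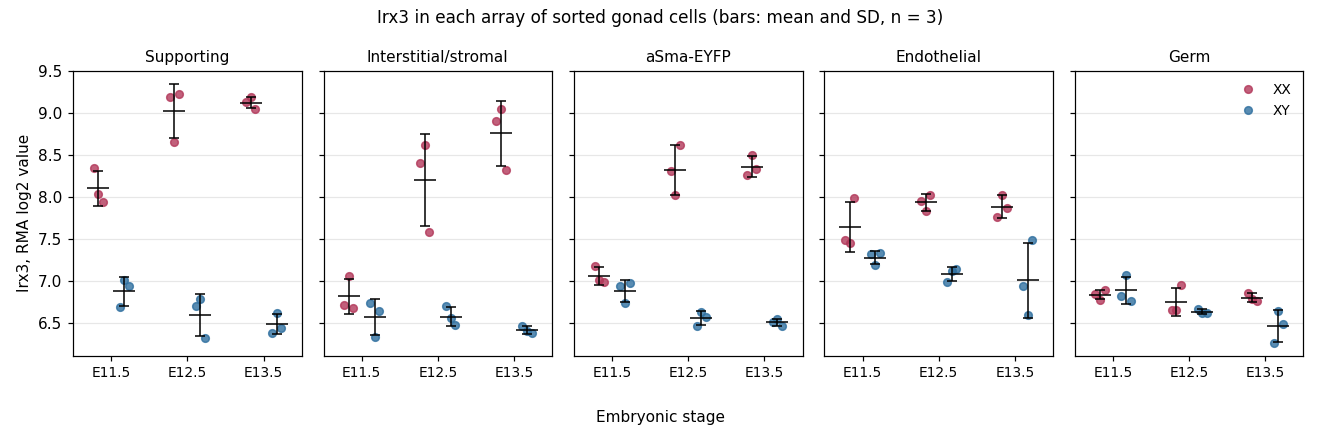
RMA log2 value of Irx3 (vertical axis) in every array by stage (horizontal axis), in a panel for each of the 5 populations, with XX left of XY. Points are arrays and bars give the mean and SD of 3 arrays. XX supporting arrays sit between 7.94 and 9.23, all above the XY supporting arrays, while XX and XY germ cell arrays all lie below 7.1.

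In interstitial/stromal cells the sexes were close in Irx3 at E11.5 and apart from E12.5 on. At E11.5 the XX interstitial/stromal arrays read 6.72, 7.06 and 6.68 for Irx3, against 6.74, 6.34 and 6.65 in XY interstitial/stromal arrays. At E12.5 they read 8.40, 8.62 and 7.59 in XX, against 6.70, 6.56 and 6.48 in XY. At E13.5 they read 8.90, 9.05 and 8.32 in XX, against 6.47, 6.41 and 6.38 in XY. The arrays overlapped at E11.5 and not later, and the third XX array was the lowest at both later stages. The E11.5 difference of 0.24 (95% interval -0.12 to 0.61, limma, adjusted p = 1.00) did not pass the test. Irx3 was higher in XX cells by 1.62 ± 0.18 (3.08-fold, limma, adjusted p = 8.7e-10) at E12.5 and by 2.34 ± 0.18 (5.06-fold, limma, adjusted p = 4e-15) at E13.5. It was the 1 Iroquois gene of 6 called at these stages, where 2.85% and 3.53% of all clusters were called higher in XX cells, against 0.0416% at E11.5.

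In the mixed αSma-EYFP population Irx3 was higher in XX cells from E12.5 on. At E11.5 the XX arrays read 7.18, 7.01 and 6.99 and the XY arrays 6.94, 6.74 and 6.98, which do not overlap but differ by 0.17 (95% interval -0.17 to 0.52, limma, adjusted p = 1.00). At E12.5 the XX αSma-EYFP arrays read 8.31, 8.03 and 8.62 for Irx3, against 6.47, 6.64 and 6.57 in XY. At E13.5 they read 8.26, 8.50 and 8.33 in XX, against 6.51, 6.55 and 6.47 in XY. Every XX array lay more than a log2 unit above every XY array at both later stages. Irx3 was higher in XX αSma-EYFP cells by 1.76 ± 0.17 (3.39-fold, limma, adjusted p = 1.9e-12) at E12.5 and by 1.86 ± 0.17 (3.62-fold, limma, adjusted p = 1.7e-13) at E13.5. Irx3 and Irx5 were the 2 of 6 Iroquois genes called at each of these stages, where 2.62% and 3.24% of clusters were called higher in XX, against 0 of 6 and 0.0237% at E11.5.

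Markers of pre-granulosa cells moved with Irx3 in interstitial/stromal and αSma-EYFP cells. The list held 8 genes, among them Fst (follistatin, an inhibitor of activin), Wnt4 and Rspo1 (a ligand and an enhancer of WNT signalling), Bmp2 (a secreted growth factor), Runx1 (a transcription factor) and Lgr5 (an R-spondin receptor). In XX compared with XY interstitial/stromal cells 1, 5 and 6 of the 8 were called higher at the 3 stages and none was called lower, and in αSma-EYFP cells the counts were 0, 5 and 5. In supporting cells they were 5, 6 and 7, with Lgr5 lower at E11.5. Of all clusters 0.0416%, 2.85% and 3.53% were called higher in XX interstitial/stromal cells at the 3 stages. The shares were 0.0237%, 2.62% and 3.24% in XX αSma-EYFP cells and 3.92%, 13.8% and 14.7% in XX supporting cells. The median differences of the list were 0.25, 0.94 and 1.59 in interstitial/stromal cells and 0.40, 0.85 and 1.62 in αSma-EYFP cells, where the medians over all clusters lay between -0.02 and 0.00. Fst stood at 10.59 in XX and 6.64 in XY interstitial/stromal cells at E12.5. The mean level of the 8 genes was 8.23 to 8.83 over the XX interstitial/stromal arrays at E12.5 and 8.41 to 9.04 at E13.5, and the third array was the lowest at both stages, as it was for Irx3. At E11.5 the XX interstitial/stromal arrays had a list level of 7.77 to 8.04 with Irx3 at 6.68 to 7.06. The cluster of Foxl2 itself, which encodes a forkhead factor of granulosa cells, read 6.06 to 6.48 in the group means of all populations, XX supporting cells included. Absence of Foxl2 cannot be read from this flat cluster. At E13.5 the cluster of Foxl2os read 11.06, 10.82 and 10.97 in XX Sry-EGFP arrays, against 7.64, 7.72 and 7.75 in XY Sox9-ECFP arrays. Sertoli markers moved the other way: 6, 9 and 6 of 10 were called lower in XX interstitial/stromal cells and 5, 9 and 5 in XX αSma-EYFP cells. Over all clusters 0.196%, 3.07% and 5.14% were called lower in XX interstitial/stromal cells and 0.225%, 2.53% and 2.49% in XX αSma-EYFP cells. Sertoli markers averaged 7.09 in XX and 8.41 in XY αSma-EYFP cells at E11.5. Fetal Leydig markers, steroid-synthesis genes of the testis, were lower in XX interstitial/stromal cells, with 4 of 4 called at E12.5 and at E13.5 and medians of -2.07 and -4.16. In αSma-EYFP cells 2 of 4 were called lower in XX at E12.5 and 4 of 4 at E13.5 (medians -0.58 and -2.65). The part of pre-granulosa, Sertoli or Leydig cells in the Irx3 differences was not tested.

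**Figure D2:**
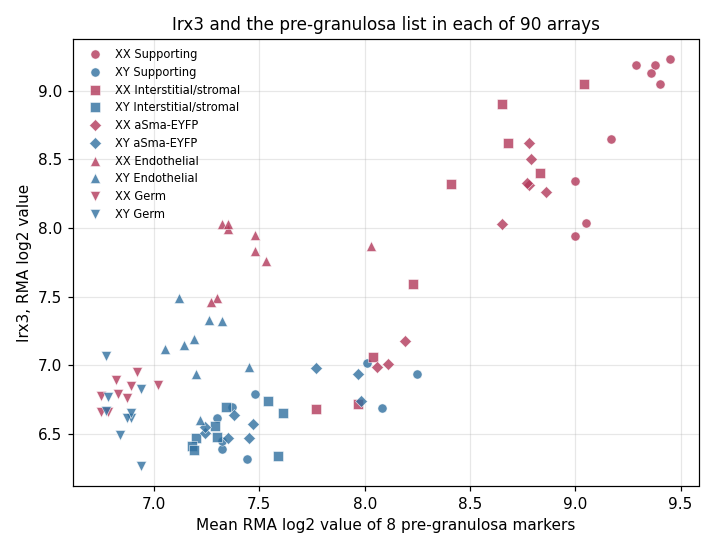
RMA log2 value of Irx3 (vertical axis) against the mean RMA log2 value of the 8 pre-granulosa markers (horizontal axis) in each of the 90 sorted-cell arrays, by population and sex. XX supporting arrays lie at the upper right, while XX endothelial arrays reach Irx3 levels of 7.46 to 8.03 with list levels of 7.27 to 8.03.

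Endothelial cells held an intermediate level of Irx3, which was higher in XX cells at the later stages. At those stages the XY sort also held Leydig cells, and the study could not tell sex differences in this population from that contamination. Whether this sex difference differed from that of other populations was not tested. Of all clusters 0.767% were called higher in XX endothelial cells at E11.5. At that stage the XX Flk1-mCherry arrays read 7.49, 7.46 and 7.99 for Irx3, against 7.32, 7.19 and 7.33 in XY. At E12.5 they read 7.95, 7.83 and 8.03 in XX, against 6.99, 7.12 and 7.15 in XY. At E13.5 they read 7.76, 8.03 and 7.87 in XX, against 6.94, 6.60 and 7.49 in XY. XX arrays lay above XY arrays at each stage, with 1 high XY array at E13.5. The E11.5 difference of 0.37 (95% interval 0.00 to 0.73, limma, adjusted p = 0.33) was not called. Irx3 was higher in XX endothelial cells by 0.85 ± 0.18 (1.8-fold, limma, adjusted p = 0.0023) at E12.5, where 0.69% of clusters were called higher, and by 0.87 ± 0.18 (1.83-fold, limma, adjusted p = 0.00071) at E13.5, where 1.49% were. The E13.5 call was lost (adjusted p = 0.13) when the spread was taken from these 6 arrays alone. Beside this, 0, 0 and 3 of the 8 pre-granulosa markers were called higher at the 3 stages, and at E13.5 Fst averaged 8.42 in XX and 6.67 in XY endothelial cells. The XX E13.5 array with the highest list level (8.03, against 7.35 and 7.53) read 7.87 for Irx3, between the others. Fetal Leydig markers were lower in XX endothelial cells, with 4 of 4 tested called at E12.5 and at E13.5 and medians of -2.49 and -5.15, where 2.86% and 3.82% of clusters were called lower. Of 7 interstitial and mesenchymal markers 3 were lower in XX at E13.5 (median -0.75), with means of 7.60 to 8.21 over the XX arrays and 7.79 to 9.43 over the XY arrays. Red blood cell markers averaged 8.33 in XX and 9.45 in XY endothelial cells at E13.5, with 2 of 4 called lower. Macrophage markers averaged 7.42 to 7.97 in the XX Flk1-mCherry groups and 7.32 to 7.90 in the XY groups, against at most 6.41 in any other group. The part of these cells in the Irx3 difference was not tested.

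Germ cells gave no call for Irx3 or any other Iroquois gene (0 of 6 at each stage), where 0.119%, 2.77% and 10.1% of clusters were called higher in XX cells at the 3 stages. Over the 9 XX Oct4-EGFP arrays Irx3 read 6.66 to 6.95, and over the 9 XY arrays 6.27 to 7.07. The differences were -0.04 (95% interval -0.41 to 0.32) at E11.5, 0.12 (-0.24 to 0.48) at E12.5 and 0.33 (-0.03 to 0.70) at E13.5, with adjusted p of 1.00, 0.93 and 0.22 by limma. At E13.5 the XX germ cell arrays (6.86, 6.79 and 6.76) lay above the XY arrays (6.27, 6.65 and 6.49) without passing the test.

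**Figure D3:**
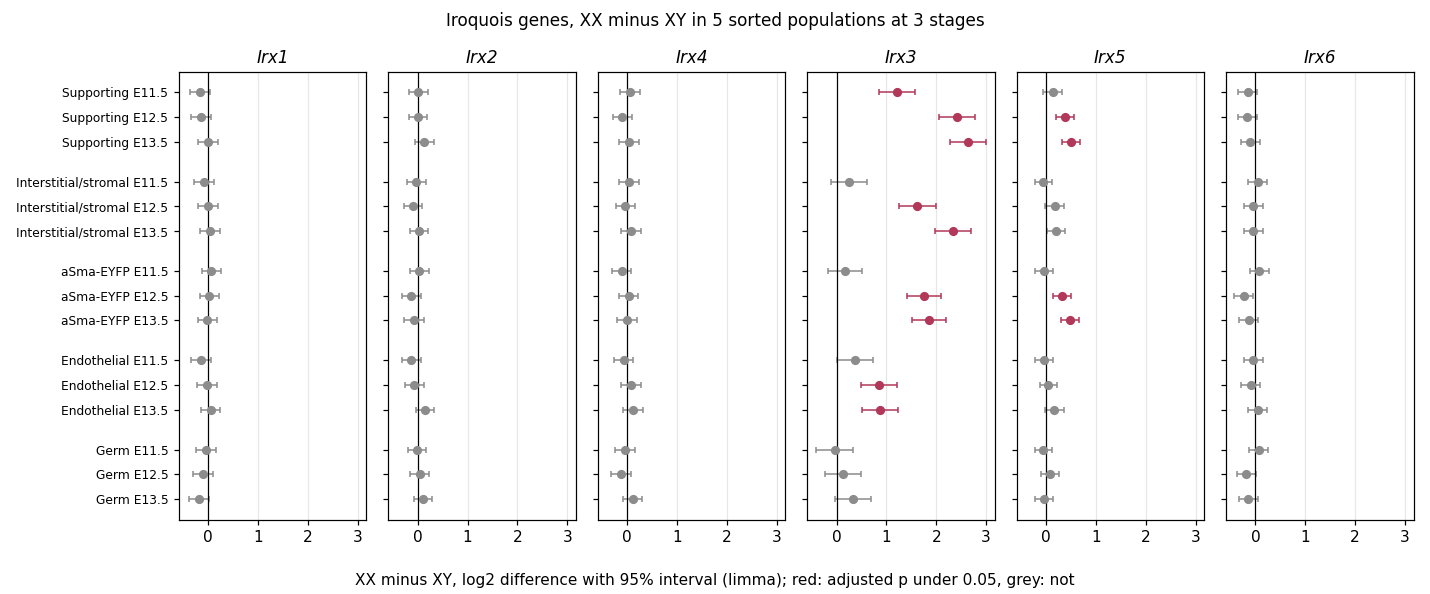
XX minus XY difference in log2 value with its 95% interval (horizontal axis) for each of the 6 Iroquois genes, in 5 populations and 3 stages (vertical axis). Red points passed an adjusted p of 0.05 in limma and grey points did not: 9 of 15 for Irx3 and 4 of 15 for Irx5, all higher in XX, and none for Irx1, Irx2, Irx4 and Irx6.

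The Irx3 difference between the sexes widened from E11.5 to E12.5. The widening was tested as the XX minus XY difference at E12.5 minus that at E11.5. It was 1.20 ± 0.26 in supporting cells (limma, adjusted p = 0.00056), 1.38 ± 0.26 in interstitial/stromal cells (adjusted p = 0.00037) and 1.59 ± 0.24 in αSma-EYFP cells (adjusted p = 9.4e-06). Of all clusters, 5.3%, 0.862% and 0.676% were called in the same direction. In supporting cells the XY reporter changed from Sry-EGFP to Sox9-ECFP between these stages, so stage and reporter cannot be told apart there. In endothelial cells the widening of 0.48 was not called (adjusted p = 0.30), nor was any change from E12.5 to E13.5 in the 5 populations (0.02 to 0.72). The widening went with higher Irx3 in XX cells. Between E11.5 and E12.5 Irx3 rose by 0.92 ± 0.18 in XX supporting cells (limma, adjusted p = 0.00029), by 1.39 ± 0.18 in XX interstitial/stromal cells (adjusted p = 4.7e-07) and by 1.26 ± 0.17 in XX αSma-EYFP cells (adjusted p = 3.6e-07). Clusters called higher at E12.5 made up 3.99%, 1.03% and 1.03%. These were the 3 calls among 20 stage comparisons. None of the 10 steps in XY cells was called, and these lay between -0.33 and 0.01. The rise in XX interstitial/stromal cells lost its call (adjusted p = 0.13) with the spread of those 6 arrays alone.

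Supporting cells led the lineages by their Irx3 level in XX gonads. Flk1-mCherry endothelial cells did so in XY gonads, where that sort also held Leydig cells after E11.5. In XX gonads the supporting cells stood above the average of the other lineages by 1.00 ± 0.15, 1.39 ± 0.15 and 1.31 ± 0.15 at the 3 stages (limma, adjusted p = 1.2e-07, 2.3e-11 and 1.5e-10), in comparisons where 19.6%, 17.5% and 19.1% of clusters were called higher. In XY gonads the same contrasts were -0.03, -0.16 and -0.15 and none was called. Interstitial/stromal cells were also called above the other lineages for Irx3 in XX gonads at E13.5, where 10.9% of clusters were called higher. At E11.5 they were called below the other lineages in XX and in XY gonads, where 12.8% and 18.3% of clusters were called lower. Endothelial cells were above the other lineages in XY gonads by 0.50, 0.48 and 0.55 (limma, adjusted p = 0.0046, 0.0072 and 0.0022), where 20.4%, 21.4% and 15.6% of clusters were called. The E13.5 value fell to 0.31 (adjusted p = 0.16) without the third XY Flk1-mCherry array. Germ cells differed from the others in XX gonads by -0.68, -1.63 and -1.79 (limma, adjusted p = 9.4e-05, 4.4e-14 and 1.8e-15), where 25.4%, 26.2% and 26.6% of clusters were called lower.

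Supporting cells of the XX gonad held more Irx3 signal than interstitial/stromal cells at the earlier stages, and whether this gap changed with stage was not tested. The supporting minus interstitial/stromal difference in XX gonads was 1.29 ± 0.18 at E11.5 (8.11 against 6.82, limma, adjusted p = 9.4e-08), 0.82 ± 0.18 at E12.5 (9.03 against 8.21, adjusted p = 0.00064) and 0.37 ± 0.18 at E13.5 (9.13 against 8.76, adjusted p = 0.19), where 13.4%, 8.56% and 7.31% of clusters were called higher. Without the third XX interstitial/stromal array the E12.5 value was 0.51 (adjusted p = 0.053). The sex difference itself was larger in supporting than in interstitial/stromal cells by 0.98 ± 0.26 at E11.5 (limma, adjusted p = 0.022) and by 0.80 ± 0.26 at E12.5 (adjusted p = 0.028), but not detectably at E13.5 (0.30, adjusted p = 0.54). Of all clusters 0.957%, 5.64% and 6.75% were called in this direction. Leaving out single arrays moved the E11.5 value between 0.86 and 1.09 and the E12.5 value between 0.49 and 1.01, with the call lost without 6 of 12 arrays at E11.5 and without 5 of 12 at E12.5.

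Over all 30 groups, Irx3 was highest in 10 groups of XX somatic cells. XX supporting cells at E13.5 (9.13) and E12.5 (9.03) came first, then XX interstitial/stromal cells at E13.5 (8.76), XX αSma-EYFP cells at E13.5 (8.36) and E12.5 (8.32), XX interstitial/stromal cells at E12.5 (8.21) and XX supporting cells at E11.5 (8.11). The XX endothelial groups followed at 7.94, 7.88 and 7.65. Below them came XY endothelial cells at E11.5 (7.28) and E12.5 (7.09), and the lowest group was XY interstitial/stromal cells at E13.5 (6.42). Of the 29 steps between neighbours in this order, 27 lay within the overlap of the arrays. The 2 that did not were the step from XX endothelial cells at E11.5 to XY endothelial cells at E11.5 and the next step to XY endothelial cells at E12.5.

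Irx5, the neighbour of Irx3 on chromosome 8, followed it in supporting and αSma-EYFP cells with smaller differences. In XX Sry-EGFP arrays Irx5 read 7.08, 7.20 and 7.03 at E11.5, against 7.12, 6.84 and 6.94 in XY Sry-EGFP arrays. At E12.5 it read 7.26, 7.36 and 7.07 in XX supporting cells, against 6.93, 6.75 and 6.87 in XY. At E13.5 it read 7.41, 7.23 and 7.11 in XX, against 6.79, 6.66 and 6.76 in XY. The arrays overlapped at E11.5 and were narrowly apart at the later stages. Irx5 was higher in XX supporting cells by 0.38 ± 0.09 (1.3-fold, limma, adjusted p = 0.0008) at E12.5 and by 0.51 ± 0.09 (1.42-fold, limma, adjusted p = 1.1e-05) at E13.5, and the E11.5 difference of 0.14 was not called (adjusted p = 0.45).

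In XX αSma-EYFP cells Irx5 read 6.98, 7.22 and 7.22 at E12.5, against 6.89, 6.77 and 6.77 in XY, and 7.29, 7.22 and 7.18 at E13.5, against 6.78, 6.67 and 6.80 in XY. The arrays were apart at both stages. The differences were 0.33 ± 0.09 (1.26-fold, limma, adjusted p = 0.014) at E12.5 and 0.48 ± 0.09 (1.4-fold, limma, adjusted p = 7.1e-05) at E13.5. The E12.5 call rests on single arrays: leaving out 1 array at a time moved it between 0.29 and 0.41, with adjusted p up to 0.11. The call was kept in only 2 of these 6 fits. In interstitial/stromal cells Irx5 averaged 6.91 in XX and 6.74 in XY at E12.5 (difference 0.18, limma, adjusted p = 0.36) and 7.04 in XX and 6.83 in XY at E13.5 (0.21, adjusted p = 0.19), so it was not called there. Irx5 was called in 0 of 20 stage comparisons and its sex difference was not called as wider at E12.5 than at E11.5 in any population (αSma-EYFP 0.37, adjusted p = 0.23). In XX gonads it was above the mean of the other lineages in supporting cells by 0.30, 0.29 and 0.30 at the 3 stages (limma, adjusted p = 0.00076, 0.0014 and 0.001).

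Irx3os is annotated on the strand opposite Irx3, with start sites 1682 bases apart, and it was read by a cluster of its own. Irx3 starts at 91801654 on the minus strand and Irx3os at 91803336 on the plus strand, so from these starts they run away from each other. In XX supporting cells Irx3os read 7.28, 7.22 and 7.25 at E12.5, against 6.74, 6.40 and 6.68 in XY supporting cells. At E13.5 it read 7.54, 7.34 and 7.32 in XX, against 6.53, 6.65 and 6.68 in XY. At E11.5 the sexes overlapped, at 6.84, 6.82 and 6.84 in XX and 6.92, 6.62 and 6.68 in XY. The differences were 0.64 (limma, adjusted p = 2.6e-06) at E12.5 and 0.78 (adjusted p = 3.8e-08) at E13.5. Irx3os was not called in interstitial/stromal cells at E12.5 (0.26, adjusted p = 0.19) or at E13.5 (0.30, adjusted p = 0.075), nor in αSma-EYFP cells (0.28 and 0.11). The difference between supporting and interstitial/stromal cells in this contrast was 0.48 at E13.5 (limma, adjusted p = 0.025). Whether the labelled product kept the strand is not given in the sources used here. Transcripts that begin at the start sites given above would not overlap, and signal shared between the Irx3 and Irx3os clusters was not tested.

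**Figure D4:**
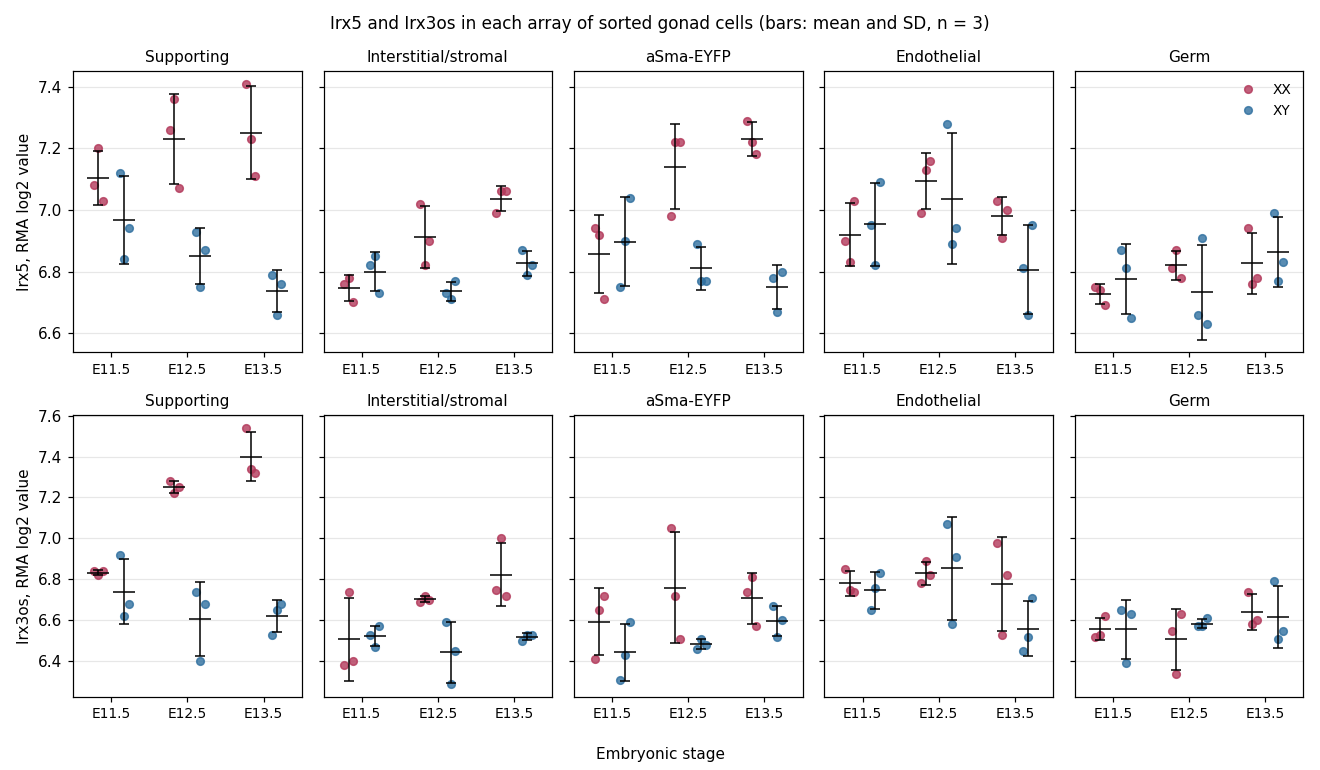
RMA log2 values of Irx5 (upper row) and Irx3os (lower row) in every array by stage (horizontal axis), in a panel for each of the 5 populations with XX left of XY. Points are arrays and bars give the mean and SD of 3 arrays. Both genes separate XX from XY supporting cells at the later stages, within a range of about a log2 unit.

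Genes around the clusters were called in both directions. Of 32 annotated neighbours 13 were tested, and in supporting cells 1, 4 and 5 were higher in XX and 4, 4 and 4 lower at the 3 stages. Over all clusters 3.92%, 13.8% and 14.7% were called higher and 5.67%, 16.9% and 14.7% lower. Crnde, a long noncoding RNA between Irx3 and Irx5, averaged 6.97 in XX and 6.21 in XY supporting cells at E12.5 (0.77, limma, adjusted p = 5.1e-06) and 7.36 in XX and 6.17 in XY at E13.5 (1.19, adjusted p = 1.1e-10). It was also higher in XX αSma-EYFP cells at E12.5 (0.58, adjusted p = 0.001) and E13.5 (0.74, adjusted p = 1.2e-05), and at E13.5 in the XX interstitial/stromal lineage (0.87, adjusted p = 1.6e-06). On the far side of Irx3, Rpgrip1l, a gene of the base of cilia, averaged 8.67 in XX and 7.53 in XY supporting cells at E12.5 (1.14, adjusted p = 1.1e-08). Fto, an RNA demethylase gene that lies between Rpgrip1l and Irx3, was not called (0.10, adjusted p = 0.65). Beyond Irx6, Mmp2, a matrix-degrading protease, averaged 7.28 in XX and 10.08 in XY supporting cells at E12.5 (-2.80, adjusted p = 2.9e-18). Beside the Irx1 cluster, Adamts16, another extracellular protease, averaged 8.18 in XX and 10.01 in XY (-1.83, adjusted p = 1.1e-13).

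The other 4 members were flat between the sexes. Of these, Irx1, Irx4 and Irx6 lay close to the filter limit of 6. Irx2 lay below the 7.85 that Sry averaged in XX arrays, which lack that gene. For all 4 a flat level cannot be told from a lack of expression. Irx1, Irx2, Irx4 and Irx6 were called in 0 of 60 comparisons of XX with XY cells by limma (1 with an unadjusted p under 0.05, and 0 or 1 calls when single arrays were left out), and their differences lay between -0.23 and 0.14, with 95% limits from -0.42 to 0.33. None of their 80 stage comparisons was called either (3 with an unadjusted p under 0.05). Group means covered 5.87 to 6.22 for Irx1, a range of 0.48 up to 7.48 for Irx2, 6.25 to 6.52 for Irx4 and 6.03 to 6.40 for Irx6, against 6.73 to 7.25 for Irx5 and 6.42 to 9.13 for Irx3. The median SD within a group was 0.09 to 0.13 for each member, so the range of Irx3 was far wider than its spread and those of the flat members were a few SDs.

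Between lineages the flat members gave a few small calls, 4 higher and 2 lower in 96 comparisons of 1 lineage with the rest. Irx2, a gene of the developing heart and limb, read 7.28, 7.42 and 7.54 in XX endothelial arrays at E12.5, against 6.96 to 7.06 in the 3 XX interstitial/stromal arrays, which did not overlap. Irx2 was above the other lineages in endothelial cells at E12.5 by 0.25 in XX (limma, adjusted p = 0.0049) and 0.30 in XY (adjusted p = 0.00091), where 21% and 21.4% of clusters were called higher. The XX value was 0.19 (adjusted p = 0.083) without the third XX endothelial array. At E11.5 Irx2 was called in XY endothelial cells at 0.18 (adjusted p = 0.045), which was lost without any of 6 of the 12 arrays (0.07 to 0.33, adjusted p up to 0.54). The 2 lower calls were of Irx2 in interstitial/stromal cells at E12.5, at -0.30 in XX (adjusted p = 0.0018) and -0.21 in XY (adjusted p = 0.027), where 15.6% and 16% of clusters were called lower. Irx6, which in the mouse retina acts in bipolar cells, read 6.67, 6.30 and 6.23 in XY Sry-EGFP arrays at E11.5, against 6.07, 6.15 and 5.96 in XY interstitial/stromal arrays (0.34, limma, adjusted p = 0.0061), where 13.8% of clusters were called higher. It was also above the mean of the other lineages by 0.27 (adjusted p = 0.0036), where 18.7% of clusters were. The first of these XY Sry-EGFP arrays was the highest, and without it the values were 0.21 (adjusted p = 0.16) and 0.14 (adjusted p = 0.22). Irx1 averaged 6.22 in XY Sox9-ECFP and 5.95 in XY interstitial/stromal cells at E12.5 (0.26, limma, adjusted p = 0.043), where 14.2% of clusters were called higher. Irx2 was higher in supporting than in interstitial/stromal cells of XX gonads at E12.5 (0.28, limma, adjusted p = 0.029), where 8.56% of clusters were called higher. Irx4, a ventricular gene of the heart, was called in no comparison by limma.

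Across the 30 group means the members did not vary as one family. Irx3 and Irx5 had a Pearson correlation of 0.88, and each had 0.82 with Irx3os, whereas Irx3 had 0.18 with Irx4, 0.12 with Irx2, 0.09 with Irx1 and -0.23 with Irx6. Irx1 had 0.58 with Irx6 and 0.52 with Irx2. These are descriptions over groups that share sex, stage and reporter, not tests. The group means of Irx1, Irx4 and Irx6 lay between 5.87 and 6.52, close to the filter limit of 6. Those of Irx2 reached 7.48, below the mean of 7.85 for Sry in XX arrays. Correlations that involve these genes therefore cannot be read as expression. Among 15358 other genes the 5 most like Irx3 were Foxl2os (0.92), Insyn2b (0.905), Itpr2 (0.892), Akr1c14 (0.89) and Fst (0.887). The gene most like Irx5 was Irx3 (0.877), followed by Csgalnact1 (0.856), Fmo5 (0.85), Cybrd1 (0.833) and Serpina16 (0.831). For the flat members the likest genes were Alpi for Irx1 (0.806), Krt12 and Ermap for Irx2 (0.85 each), Celf6 for Irx4 (0.813) and Hap1 for Irx6 (0.758).

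Other TALE homeobox genes, whose products include partners of homeodomain factors, were called in both directions in supporting cells. Of 11 tested, 0, 4 and 3 were higher in XX and 1 was lower at each of the 3 stages, beside 3.92%, 13.8% and 14.7% of all clusters called higher and 5.67%, 16.9% and 14.7% lower, with list medians of 0.10, 0.19 and 0.33 against medians over all clusters of 0.00, 0.00 and 0.03. Pbx3 averaged 8.97 in XX and 7.71 in XY supporting cells at E12.5 (1.27, limma, adjusted p = 3.8e-06), and Meis1 9.56 in XX and 8.54 in XY (1.02, adjusted p = 0.011). Meis3 averaged 8.09 in XX and 7.36 in XY (0.73, adjusted p = 3e-05). Tgif1, a repressor of TGF-beta and retinoid targets, averaged 10.26 in XX and 10.89 in XY (-0.62, adjusted p = 0.0054). Pbx3 was also higher in XX interstitial/stromal cells at E12.5 (0.84, adjusted p = 0.0077) and E13.5 (1.25, adjusted p = 2e-05).

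Gap junction genes, read here because Irx3 and Irx5 are known for cell contacts of the ovarian follicle, were called about as often as all clusters in supporting cells. Of 7 tested, 0, 0 and 1 were higher and 1, 2 and 1 lower in XX supporting cells at the 3 stages, beside 3.92%, 13.8% and 14.7% of all clusters called higher and 5.67%, 16.9% and 14.7% lower. Gjb2, which encodes a connexin, averaged 5.96 in XX and 9.12 in XY supporting cells at E12.5 (-3.16, limma, adjusted p = 1.5e-20). Gja1, whose connexin joins granulosa cells to each other, averaged 10.62 in XX and 11.25 in XY at E12.5 (-0.64, adjusted p = 0.041). Gja4, whose connexin joins them to the oocyte, averaged 6.80 in XX and 6.29 in XY at E13.5 (0.51, adjusted p = 0.049).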

How the data were processed

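RNA of sorted cells was amplified by the authors, arrays were scanned in GCOS, and Partek's RMA, with probes adjusted for their GC content and sequence, gave the deposited log2 values per transcript cluster. The genome build of the files and which arrays were normalized together are not given in the sources used here. Of 35557 clusters 21789 name 1 gene, and a gene with several clusters was taken at its highest mean. Clusters above 6 in at least 2 of 3 arrays of a group were tested (16820 over 72 arrays, 16859 over 90). Groups were compared with limma 3.58.1 in R 4.3.3, with 1 mean per group and Benjamini-Hochberg adjustment over all tested clusters. The fit of 72 arrays served the 4 lineages and that of 90 arrays the αSma-EYFP cells, and a call is an adjusted p under 0.05. The number of arrays limits the precision.

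The text names the 6 members, the 5 genes most like each by Pearson correlation of group means, and up to 4 members of each list with the largest differences. Beyond this rule, Irx3os, Crnde, Fto, Tgif1 and Foxl2 were chosen after their values were seen. Members and lists were chosen with earlier results of these data known. Alternatives were other normalizations, filters, priors and samples in the fit, the limits of the study's methods, the replicate number as a block, and leaving out single arrays. The array of a whole newborn mouse entered no comparison. The reporter of the interstitial/stromal sort is not reported here.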

Additional observations from a re-analysis of the deposited data

Results flagged for a closer look

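The sex difference of Irx3 differed between E12.5 and E11.5 by a test of the difference itself in supporting cells (1.20, limma, adjusted p = 0.00056), in interstitial/stromal cells (1.38, adjusted p = 0.00037) and in αSma-EYFP cells (1.59, adjusted p = 9.4e-06), each time wider at E12.5. It also differed between supporting and interstitial/stromal cells at E11.5 (0.98, adjusted p = 0.022) and at E12.5 (0.80, adjusted p = 0.028), larger in supporting cells both times. In XY supporting cells the reporter changed between E11.5 and E12.5, so stage and reporter cannot be told apart there. With 3 arrays a group, single arrays were not searched for outlying values. By the study's account an E11.5 XY endothelial array clustered as something of an outlier, and its amplification yield was low but adequate. Which array it was is not given in the sources used here.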

How the results depend on the processing

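No call among the main comparisons of the members changed with another quantile normalization, equal array medians, no filter or a filter at 7, a trended robust prior, all 90 arrays in 1 fit or the replicate block, and the filter at 7 left out Irx1, Irx4 and Irx6. With the spread from only the 6 arrays compared, 3 main calls were lost: Irx3 in endothelial cells at E13.5 (0.87, adjusted p = 0.13), the Irx3 step from E11.5 to E12.5 in XX interstitial/stromal cells (1.39, adjusted p = 0.13) and Irx5 in αSma-EYFP cells at E12.5 (0.33, adjusted p = 0.09). So were 2 lineage calls, supporting minus interstitial/stromal cells for Irx3 in XX at E12.5 (0.82, adjusted p = 0.13) and for Irx6 in XY at E11.5 (0.34, adjusted p = 0.16). Under the limits of the study's methods (unadjusted p under 0.05 and a fold over 1.5) Irx5 lost its calls in supporting cells (0.38 and 0.51) and αSma-EYFP cells (0.33 and 0.48), since these folds are under 1.5. The same limits also ended 12 of the 28 lineage and other results, 4 of Irx3 in endothelial cells, 3 of Irx5 in supporting cells, 3 of Irx2 and 2 of Irx6. Leaving out single arrays moved Irx5 in αSma-EYFP cells between 0.29 and 0.41 at E12.5 and between -0.11 and 0.03 at E11.5, and Irx3 in germ cells at E11.5 between -0.10 and 0.04. The count of sex calls of Irx1, Irx2, Irx4 and Irx6 ran from 0 to 1: without the first XY Flk1-mCherry array at E11.5, Irx2 was lower in XX endothelial cells (-0.28, adjusted p = 0.034). The contrast of XX endothelial cells with the other lineages for Irx3 ran from -0.16 to 0.01 at E12.5, and its E11.5 call (0.39) was lost without any of 3 of the 12 arrays (0.22, adjusted p = 0.37, without the third XX Flk1-mCherry array), with another quantile normalization (0.33) and with equal medians (0.35, adjusted p = 0.052). With all 90 arrays the Irx2 call in XY endothelial cells at E11.5 was lost (0.18) and the Irx3 contrast of XX endothelial cells at E13.5 was gained (-0.34, adjusted p = 0.043). Replicate numbers did not pair XX with XY arrays (same-number correlations of deviations -0.31 to 0.36, above 0.1 for every number in 1 of 15 comparisons), and the replicate block kept every call of 32 main results (Irx3 in supporting cells at E12.5, 2.42). Another cluster per gene could not be tried, since each member has 1.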

Other observations

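The array of a whole newborn mouse, 1 sample in no group, read 6.85 for Irx3, below all XX somatic group means of E12.5 and E13.5. It read 7.63 for Irx2 and 6.81 for Irx4, each at or above the highest of the 90 sorted-cell arrays for that gene (7.63 and 6.75), and 6.23 for Irx1, 7.09 for Irx5 and 6.41 for Irx6, within the range of the sorted cells. Crnde, the noncoding RNA between Irx3 and Irx5, read 6.76 to 7.48 over the 9 XX germ cell arrays and 6.93 to 7.16 over the 9 XY germ cell arrays, against 5.96 to 6.58 over all endothelial arrays of both sexes.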
